A study of Mus musculus with 4 samples.

Results

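The 10 genes described here encode the killing apparatus of lymphocytes, namely the granzymes Gzma, Gzmb, Gzmk and Gzmm, perforin (Prf1), the granule proteins Nkg7, serglycin (Srgn) and cathepsin W (Ctsw), the death ligand Fasl, and Ctla2a. They were chosen by name from the 22180 genes that the arrays measured through a probe set with 1 gene symbol, and each had 1 such probe set. Affymetrix gene arrays, 1 per population, read the RNA of 4 CD4 T cell populations from mice of the C57BL/6 background aged 8 weeks. Natural Th1 cells (nTh1) were CD4+CD62L+CXCR3+ thymocytes of CIITAtg mice, a genotype named for CIITA, the master regulator of MHC class II genes. Classical Th1 cells (cTh1) were grown from CD4+CD62Lhi cells of wild-type spleen. They spent 5 days on beads carrying antibodies to CD3 and CD28, with IL-2 (50 U/ml), IL-12 (2 ng/ml) and an antibody against IL-4. TT naive cells were CD4+CD62L+CXCR3- thymocytes of CIITAtg mice, and naive cells were CD4+CD62Lhi cells of wild-type spleen. The labels give no promoter for the transgene and do not say how many animals were pooled. By its title, the study asks what natural and classical Th1 cells share in function.

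Cytotoxic lymphocytes kill in a pair of ways. In the first, perforin opens the membrane of the target and granzymes, which are serine proteases, enter and cleave proteins inside it. Both are stored in secretory granules on serglycin, a proteoglycan, and are released when the granules fuse with the cell surface. In the second, Fas ligand on the killer binds Fas on the target and starts the caspase cascade. The programme is best known from CD8 T cells and NK cells, while CD4 T cells acquire parts of it in Th1 conditions.

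Values are log2 RMA summaries, so a difference of 1 is 2-fold. A comparison took in a gene if either array reached 6.61, which is the median over the whole table. Without replicates there is no test and no p-value. As a measure of error the SD of a log2 difference was taken over probe sets that read one gene. It was 0.257 for nTh1 over TT naive (455 genes), 0.402 for cTh1 over naive (471 genes) and 0.481 for nTh1 over cTh1 (480 genes), and it leaves out animals, sorts and arrays. In bulk RNA, fewer cells of a type and less RNA per cell cannot be told apart. Probe sets of different genes are not set against each other in level.

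The labels were checked on a few genes picked after their values were seen. Cd4 stood at 12.42 in nTh1, 12.72 in cTh1, 12.63 in TT naive and 12.33 in naive, and the MHC class II gene H2-Aa at 12.66, 10.73, 12.29 and 12.66 in the same order. The wild-type array labelled naive thus lay at the level of both transgenic arrays in H2-Aa. It also held Zbtb16, whose product PLZF marks innate-like T cells, at 12.23, against 9.36 in TT naive, and the Th1 genes Tbx21 at 9.81 and Cxcr3 at 9.80, against 7.11 and 7.76 in TT naive. For that reason it is called the array labelled naive below, and cTh1 is also set against TT naive. The Y-linked Eif2s3y was at 5.16 in nTh1 and 4.97 in cTh1, against 8.55 in TT naive and 8.61 on the array labelled naive, while Xist, the RNA of the inactive X chromosome, was at 13.25, 12.56, 13.03 and 12.59 in nTh1, cTh1, TT naive and the array labelled naive. TT naive and the array labelled naive thus held transcripts of both sexes, and nTh1 and cTh1 were low in the Y-linked gene. The sex of the cells differs with the population wherever nTh1 or cTh1 is set against TT naive or the array labelled naive, and cannot be told apart from it. An exchange of the nTh1 array and the array labelled naive was not tested.

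Of the granzymes, Gzmb, Gzmk and Gzma had their highest values in cTh1, and Gzmm hardly varied. Gzmb, which cleaves after aspartate and activates caspases, was at 6.02 in nTh1, 12.50 in cTh1, 5.59 in TT naive and 7.61 on the array labelled naive. The cTh1 array stood alone here, and nTh1 and TT naive were both under the level filter. Gzmk, a trypsin-like granzyme, was at 6.82 in nTh1, 10.96 in cTh1, 6.63 in TT naive and 7.22 on the array labelled naive. Apart from cTh1, its values lay within 0.59 of one another, just above the filter. Gzma, also trypsin-like, was at 7.58 in nTh1, 10.52 in cTh1, 5.94 in TT naive and 7.83 on the array labelled naive. It formed 3 steps, with cTh1 highest, TT naive lowest, and nTh1 and the array labelled naive between them and closer (0.25) than the SD between probe sets (0.368). Gzmm, known mainly from NK cells, was at 6.86, 6.70, 6.73 and 6.75 in nTh1, cTh1, TT naive and the array labelled naive. All these values were close above the filter and within 0.16 of each other, so no order can be read.

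Perforin had another order. Prf1 was at 10.81 in nTh1, 9.87 in cTh1, 8.79 in TT naive and 9.10 on the array labelled naive. It and Gzmm were the members with their highest value in nTh1, and for Prf1 each step in the order was larger than the SD between probe sets, though the last (0.31) hardly exceeded it (0.304). A second probe set that the annotation gives to Prf1 together with another symbol was not used.

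Nkg7, Fasl and Ctla2a shared a pattern, low in TT naive and high on the other arrays. Nkg7, a granule membrane protein needed for granule release, was at 11.92 in nTh1, 12.64 in cTh1, 9.36 in TT naive and 11.73 on the array labelled naive. Fasl was at 9.60 in nTh1, 10.12 in cTh1, 7.85 in TT naive and 9.93 on the array labelled naive. For Fasl the neighbouring gaps between the 3 high arrays, 0.19 and 0.33, were under the SDs of 0.402 and 0.368. Fasl in nTh1 over cTh1, the outer pair of these arrays, was at -0.51, just past the SD of 0.481. Ctla2a, an inhibitor of cathepsins that resembles the propeptide of cathepsin L, was at 8.88 in nTh1, 10.41 in cTh1, 6.09 in TT naive and 9.10 on the array labelled naive. Its close copy Ctla2b makes this probe set uncertain, because the probes of one may bind transcripts of the other.

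The other granule genes differed little between arrays. Srgn was at 11.78 in nTh1, 11.94 in cTh1, 11.78 in TT naive and 12.01 on the array labelled naive, with no gap above the SD between probe sets. Ctsw, a papain-type protease of cytotoxic lymphocytes, was at 11.42 in nTh1, 12.24 in cTh1, 11.49 in TT naive and 12.13 on the array labelled naive. Its values split into the thymic arrays and the spleen-derived arrays, with 0.63 between the groups and no more than 0.12 inside them. Over all 10 genes TT naive was lowest in 8 and cTh1 highest in 7. Among the 13238 genes above the filter on any array, 18.7% were lowest in TT naive and 34.2% highest in cTh1.

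**Figure D1:**
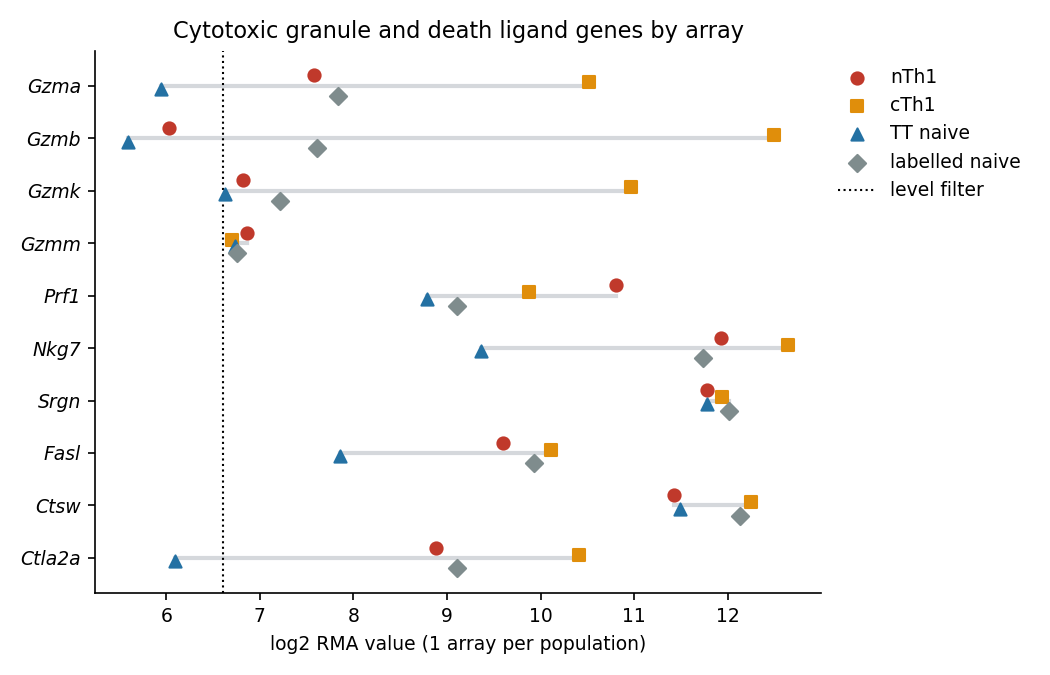
Log2 RMA value (x axis) of each of the 10 genes (rows) on the 4 arrays, 1 point per array, with the grey line spanning a gene's range and the dotted line at the level filter of 6.61. Gzma, Gzmb and Gzmk reach far to the right on the cTh1 array alone, Prf1 is highest on the nTh1 array, and Gzmm and Srgn stay within 0.23.

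The bases before the transcription start of 6 of these genes are printed here, 250 for each, as RefSeq gives them on GRCm38.p6. Gzma, Prf1, Nkg7, Fasl and Ctla2a exceeded TT naive by 2-fold or more both in nTh1 and in cTh1 (both use the same TT naive array), and Gzmb, added after its values were seen, was so in cTh1 but not in nTh1. Capitals mark matches, on either strand, to GGTGTNA (T-box factors), TGTGGT (RUNX factors) or TGANTCA (AP-1), and no match overlapped another. The positions are chr13:113100982-113101231 on the minus strand for Gzma, chr14:56262335-56262584 on the minus strand for Gzmb, chr10:61297586-61297835 on the plus strand for Prf1, and chr7:43436888-43437137 on the plus strand for Nkg7. They are chr1:161788496-161788745 on the minus strand for Fasl and chr13:60936626-60936875 on the minus strand for Ctla2a, the outer of its 2 starts.
Gzma: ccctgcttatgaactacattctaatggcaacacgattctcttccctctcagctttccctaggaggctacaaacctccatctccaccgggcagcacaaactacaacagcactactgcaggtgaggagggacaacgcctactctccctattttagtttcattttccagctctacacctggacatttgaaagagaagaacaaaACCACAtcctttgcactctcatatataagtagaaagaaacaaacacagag
Gzmb: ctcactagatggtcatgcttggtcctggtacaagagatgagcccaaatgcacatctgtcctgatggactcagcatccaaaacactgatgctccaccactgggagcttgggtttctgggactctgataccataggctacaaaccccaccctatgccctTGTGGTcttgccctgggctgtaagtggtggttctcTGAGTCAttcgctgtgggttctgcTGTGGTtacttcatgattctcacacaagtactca
Prf1: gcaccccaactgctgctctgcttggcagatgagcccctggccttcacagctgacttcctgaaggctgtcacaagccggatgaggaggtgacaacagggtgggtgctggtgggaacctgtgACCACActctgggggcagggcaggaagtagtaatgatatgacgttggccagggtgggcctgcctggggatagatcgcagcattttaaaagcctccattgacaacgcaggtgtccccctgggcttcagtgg
Nkg7: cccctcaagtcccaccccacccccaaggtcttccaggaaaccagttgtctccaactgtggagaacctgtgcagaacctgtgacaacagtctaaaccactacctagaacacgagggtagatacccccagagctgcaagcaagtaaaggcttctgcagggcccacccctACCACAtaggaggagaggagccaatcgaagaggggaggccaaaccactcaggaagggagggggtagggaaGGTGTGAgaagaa
Fasl: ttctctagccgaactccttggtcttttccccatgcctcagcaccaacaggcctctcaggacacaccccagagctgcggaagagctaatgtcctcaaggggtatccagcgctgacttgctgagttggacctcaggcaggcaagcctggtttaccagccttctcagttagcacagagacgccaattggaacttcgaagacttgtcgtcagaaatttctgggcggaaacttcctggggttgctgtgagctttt
Ctla2a: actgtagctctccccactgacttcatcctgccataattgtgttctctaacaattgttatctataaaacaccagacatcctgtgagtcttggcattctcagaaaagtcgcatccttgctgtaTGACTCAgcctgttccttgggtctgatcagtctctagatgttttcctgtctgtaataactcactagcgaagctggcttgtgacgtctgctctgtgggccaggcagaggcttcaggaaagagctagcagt

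No motif was found in all 6 of the printed upstream stretches. The Gzma and Prf1 stretches each held 1 RUNX match, Nkg7 1 T-box and 1 RUNX match, Gzmb 2 RUNX matches and 1 AP-1 match, Ctla2a 1 AP-1 match, and Fasl none. The T-box match of Nkg7 lay 13 to 7 bases before the start and the RUNX match of Prf1 130 to 125 bases before it. Of the 9 genes found in the table, with 12 stretches between them, 6 held a RUNX match, 3 a T-box match and 2 an AP-1 match. Counted by stretch, 6 of 12 held a RUNX match, 3 a T-box match and 3 an AP-1 match. The 2 stretches of Ctla2a overlap and hold the same AP-1 match. Over the 32851 stretches of the same length in the table, the shares were 14.0%, 8.61% and 6.75%. A match describes letters only, and factor binding was not measured. Ctsw was not in that table.

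nTh1 cells were compared with TT naive cells to see what goes with CXCR3 among CIITAtg thymocytes. Perforin, Nkg7, Fasl, Ctla2a and Gzma were higher in nTh1, while Gzmk, Gzmm, Srgn and Ctsw lay within 2-fold. The filter left 9 members, of which 5 were higher by 2-fold or more and 0 lower, where 1.41% of the 12435 genes above the filter were higher and 1.09% lower. Gzma and Ctla2a passed the filter through the nTh1 array alone. The median over all 10 members was 1.03, against -0.05 over all genes above the filter. Ctla2a was 6.91-fold higher and the 10th highest of all genes. Nkg7 was 5.91-fold higher and the 14th, Prf1 4.05-fold and the 26th, Fasl 3.36-fold and the 48th, and Gzma 3.12-fold and the 56th. Gzmb was 1.35-fold higher with both arrays under the filter, and so was not counted.

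The cTh1 array was compared with the array labelled naive to see what differs after Th1 culture. Granzymes led this comparison, with Gzmb 29.6-fold, Gzmk 13.4-fold and Gzma 6.42-fold higher in cTh1 and Ctla2a 2.47-fold higher. Of 10 members, all above the filter, these 4 were higher by 2-fold or more and 0 lower, where 5.13% of 12835 genes were higher and 3.35% lower. Gzmb had the 4th highest difference of all genes and Gzmk the 19th. Nkg7 at 0.91 and Prf1 at 0.77 were under 2-fold, and Fasl at 0.19 was within the SD between probe sets. The median over the members was 0.84, against -0.02 over all genes above the filter. With TT naive in place of the array labelled naive, cTh1 had 7 members past 2-fold upward, where 7.24% of 12728 genes were, and 0 lower, where 3.02% were. Gzmb was then 119-fold, Gzma 23.9-fold, Gzmk 20.1-fold, Ctla2a 19.9-fold, Nkg7 9.74-fold, Fasl 4.80-fold and Prf1 2.12-fold higher. Gzma, Gzmb and Ctla2a passed that filter through cTh1 alone. Between cTh1 and TT naive, tissue, genotype, culture and sex differ together and cannot be told apart.

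Set against cTh1, nTh1 cells had lower Gzma, Gzmb and Gzmk, with Gzmm hardly different, and higher perforin. The filter left 12841 genes. Gzmb was 88.8-fold lower in nTh1, where its value was under the filter, so it entered through cTh1 alone and the size of the fold is poorly measured. Gzmk was 17.6-fold, Gzma 7.65-fold and Ctla2a 2.88-fold lower. Of 10 members these 4 were at least 2-fold lower, where 8.30% of all genes were, and none was at least 2-fold higher, where 3.46% were. Prf1 was higher by 0.94, or 1.91-fold, just inside the threshold, and past it (1.02) with each comparison centred on its median. Ctsw at -0.82, Nkg7 at -0.72 and Fasl at -0.51 were lower in nTh1 by more than the SD of 0.481 between probe sets, under 2-fold. Srgn at -0.17 and Gzmm at 0.16 were within it. The median over the members was -0.77, against -0.08 over all genes above the filter. Tissue, genotype and culture differ together between these arrays and cannot be told apart.

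**Figure D2:**
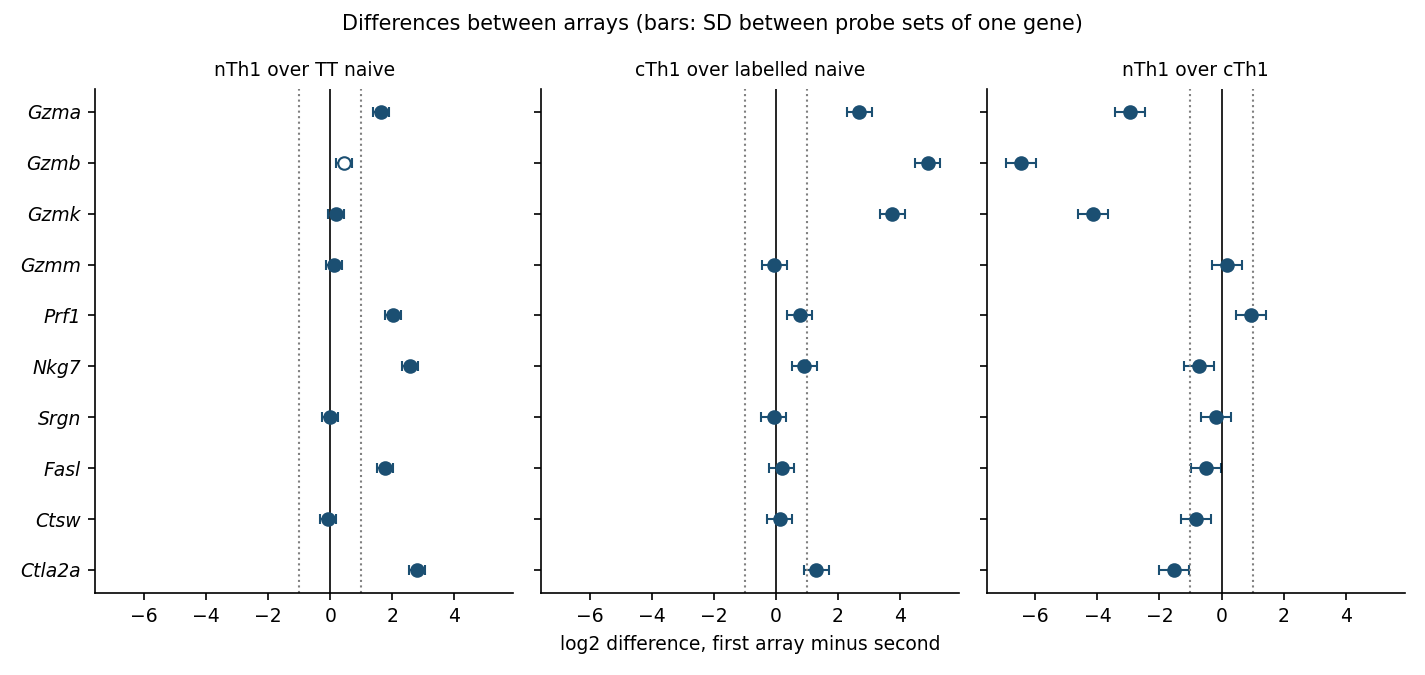
Log2 difference (x axis, the array named first minus the second) of the 10 genes (rows) in 3 comparisons, with bars for the SD between probe sets of one gene (0.257, 0.402 and 0.481 from left to right), dotted lines at 2-fold and an open point for Gzmb where both arrays were under the filter. Prf1, Nkg7, Fasl and Ctla2a lie furthest right in the left panel, and Gzmb, Gzmk and Gzma lie furthest from 0 in the other panels.

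nTh1 over TT naive and cTh1 over the array labelled naive share no array, so their differences can be set side by side. Gzma, at 1.64 and 2.68, and Ctla2a, at 2.79 and 1.30, were at least 2-fold higher in both, as were 40 of the 12032 genes above the filter in both. Those 40 were 26.5% of the 151 genes higher in nTh1 and 7.63% of the 524 higher in cTh1. Gzmb at 0.43 and 4.89 and Gzmk at 0.19 and 3.74 differed between the comparisons by -4.46 and -3.55. Nkg7, Fasl, Ctla2a and Prf1 differed the other way, by 1.65, 1.56, 1.49 and 1.25. Nkg7, Fasl and Ctla2a were at 12.64, 10.12 and 10.41 in cTh1 and at 11.73, 9.93 and 9.10 on the array labelled naive. With 1 array per population the difference between comparisons was not tested.

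**Figure D3:**
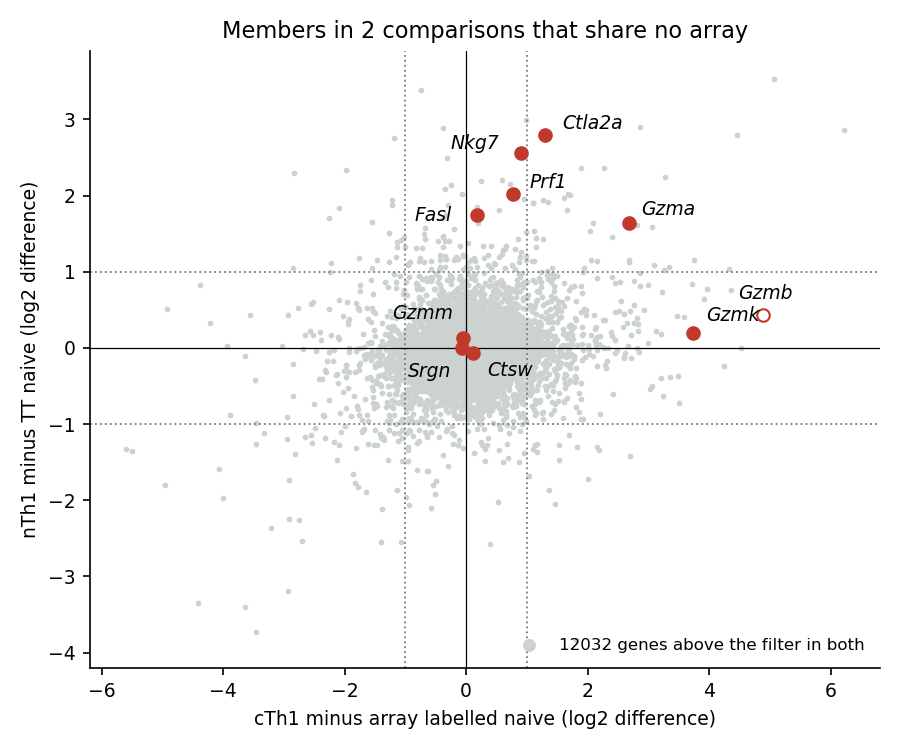
Log2 difference of nTh1 minus TT naive (y axis) against that of cTh1 minus the array labelled naive (x axis) for 12032 genes (grey) and the 10 genes (red, open where a gene was under the filter in nTh1 over TT naive), with dotted lines at 2-fold. Gzmb and Gzmk lie far to the right near 0 on the y axis, Nkg7, Prf1 and Fasl lie high with x values of 0.91 or less, and Gzma and Ctla2a are past 2-fold on both axes.

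nTh1 was also set against the array labelled naive. In nTh1 over that array, 8 of 10 members were within 2-fold, as were most of all genes. Prf1 was 3.26-fold higher in nTh1, where 1.93% of 12754 genes were at least 2-fold higher, and Gzmb was at -1.58, where 4.43% of genes were at least 2-fold lower. All genes above the filter together had a median of -0.10 in this comparison, and relative to it Prf1 was higher by 1.81 and Gzmb was at -1.48. In TT naive over the array labelled naive, all 10 differences were below 0 as deposited, and Gzmm, at -0.02, turned to 0.04 when the arrays were centred. Of the 12582 genes above the filter, Ctla2a was 8.07-fold lower in TT naive. Nkg7 was 5.18-fold, Fasl 4.22-fold, Gzmb 4.04-fold and Gzma 3.72-fold lower, so that 5 of 10 members were at least 2-fold lower, where 2.59% of all genes were, and 0 higher, where 0.795% were. Ctla2a, Gzmb and Gzma were under the filter in TT naive and passed through the array labelled naive alone. With the array labelled naive in place of nTh1 against TT naive, the count at least 2-fold higher was also 5, with Gzmb and without Prf1.

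Other genes of the killing pathways were read from lists chosen with earlier results of these data known. The shares of all genes past 2-fold, given above for each comparison, are repeated beside these counts. In nTh1 over TT naive they were 1.41% higher and 1.09% lower. Of 29 measured regulators and cytokine receptors, 5 were at least 2-fold higher and 0 lower, and the median was 0.13. The IL-12 receptor chain Il12rb2 was at 8.93 in nTh1 and 6.69 in TT naive, a difference of 2.24. Eomes, the T-box factor that drives Prf1 in CD8 T cells, was at 10.68 and 8.84, and Stat4, which carries the IL-12 signal, at 12.88 and 11.36. Among 27 genes of granule exocytosis, 1 was at least 2-fold higher, Lyst, which controls the size of secretory granules, at 11.85 in nTh1 and 10.04 in TT naive. The list median was -0.04. Th1 effector genes above the filter had 5 of 10 higher, among them the chemokine Xcl1 by 2.30 and Cxcr3 by 2.16. The sort on CXCR3 set the direction of Cxcr3 in advance. Ifng, Ccl3 and Il18rap, also higher, passed the filter through nTh1 alone. The inhibitory receptor Lag3 was the 1 lower gene, at -1.35, and the median over the 11 measured genes was 0.81. Sort and T cell identity genes had 2 of 12 higher, Cxcr3 again and Cd44 by 2.02. Of 16 death ligand and receptor genes none reached 2-fold, and Tnf was at 9.13 in nTh1 and 9.95 in TT naive. Of 14 further granule genes above the filter, 1 was higher, Ctsh, a cathepsin, by 1.13. Ctsh, at 6.14 in TT naive, passed the filter through nTh1 alone. The granzyme inhibitors had none of 6 at 2-fold, with Serpinb9, a serpin that blocks granzyme B, at 9.12 and 8.67.

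In cTh1 over the array labelled naive, 7 of 29 regulators were past 2-fold upward and 1 downward, around a median of 0.25, where 5.13% of all genes were higher and 3.35% lower. Il2ra was at 12.52 in cTh1 and 9.04 on the array labelled naive, Prdm1, which encodes Blimp-1, at 9.59 and 7.67, and Eomes was lower, at 7.94 and 10.03. Exocytosis genes had 3 of 27 higher, the granule tethers Sytl1 by 1.66 and Sytl3 by 1.52 and the fusion protein Stx11 by 1.45, and none lower. Among death ligands and receptors 3 of 16 were higher, Tnfrsf10b, the mouse TRAIL receptor, by 1.36, Tnfsf9 by 1.35 and Lta by 1.30, and Tnfsf14 was lower at -1.92. Of 15 further granule genes above the filter 3 were higher, Ctla2b by 1.87, the Fc receptor Fcgr3 by 1.41 and the granzyme Gzmc by 1.20. Gzmc, at 5.51 on the array labelled naive, passed the filter through cTh1 alone. Gzmd, Gzmf, Gzmg and Gzmn were under the filter on all arrays. With TT naive in place of the array labelled naive, 11 of 29 regulators were higher and none lower. In that comparison 7.24% of all genes were higher and 3.02% lower.

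In nTh1 over cTh1, 7 of 29 regulators were at least 2-fold lower and 1 higher, where 8.30% of all genes were lower and 3.46% higher. Tbx21, which encodes T-bet, was at 7.92 in nTh1 and 11.25 in cTh1, Bhlhe40 at 8.34 and 11.56, and Il12rb2 at 8.93 and 12.10, while Eomes was higher, at 10.68 and 7.94. Exocytosis genes had 3 of 27 lower, Stx11 at -2.31, Sytl1 at -1.83 and Stx7 at -1.15, and 1 higher, Vamp2 at 1.01, which is near the shares of all genes. Of 16 death ligands and receptors 4 were lower, Tnf at -2.02, Tnfrsf10b at -1.88, Tnfsf9 at -1.76 and Lta at -1.59, while Fas was at 8.74 in nTh1 and 9.43 in cTh1. Among granzyme inhibitors 1 of 7 was lower, Cst7, an inhibitor of the protease that activates granzymes, at 9.97 and 11.26. That protease, Ctsc, was at 10.39 in nTh1, 10.45 in cTh1, 10.84 in TT naive and 10.79 on the array labelled naive. Th1 effector genes had 7 of 11 lower and 1 higher, with Ifng at 7.34 in nTh1 and 11.19 in cTh1.

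**Figure D4:**
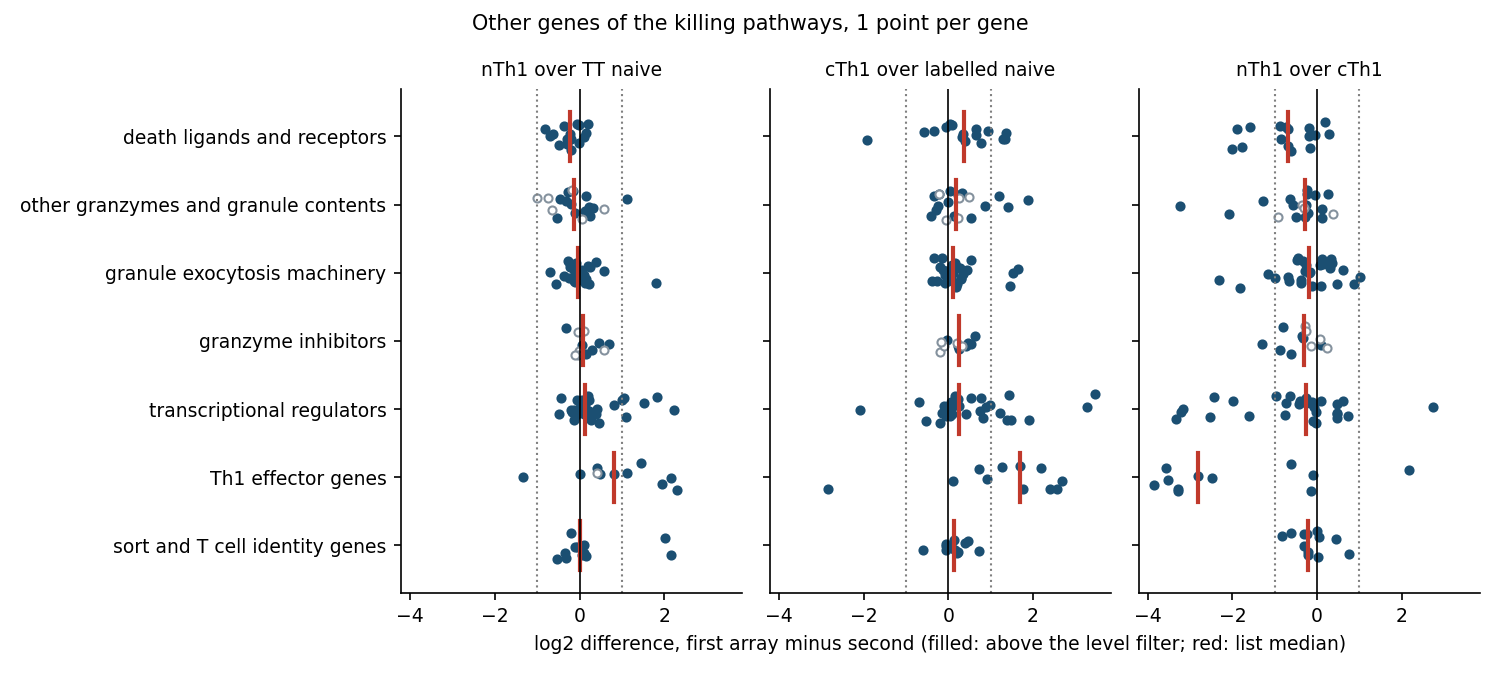
Log2 difference (x axis) of every measured gene of 7 lists (rows) in 3 comparisons, with filled points for genes above the level filter, open points for genes below it, red lines for list medians and dotted lines at 2-fold. In the left panel most genes of every list but the Th1 effector genes, whose median is 0.81, lie between the dotted lines, and in the right panel the Th1 effector median is -2.81.

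Markers of other cells moved with these comparisons, and their part in the values above was not tested. Killing genes are also made by NK cells. Of the NK list, Tyrobp was at 8.59 in nTh1 and 6.85 in TT naive and Fcer1g at 8.75 and 7.09, while the NK receptor Ncr1 was at 5.75 and 5.40 and Klrb1c at 5.12 and 4.84, under the filter in both. Of the 7 measured NK genes, 3 were above the filter and 2 exceeded TT naive by 2-fold or more in nTh1, where 1.41% of all genes did. The log2 of the summed linear level was 10.08 in nTh1, 9.49 in cTh1, 8.80 in TT naive and 10.27 on the array labelled naive. Myeloid cells express Tyrobp and Fcer1g too. The myeloid list had 8 of 15 genes above the filter at least 2-fold higher in nTh1 than in TT naive. For all genes that share was 1.41%. Ngp was at 8.79 and 5.29 and Lyz2 at 9.44 and 6.05. Apart from C1qb, at 8.98 and 6.64, the higher myeloid genes passed the filter through nTh1 alone. The summed level of the myeloid list was 12.17, 11.15, 10.90 and 11.30 in the same order of arrays. Mast cells are rich in serglycin, and their protease gene Cpa3 was at 8.70 in nTh1 and 7.05 in TT naive, while Mcpt4, Cma1 and Ms4a2 were under the filter on all arrays. Immature thymocyte genes had 3 of 7 at least 2-fold higher in nTh1 than in TT naive, where 1.41% of all genes were, among them Dntt by 2.01. B cell markers above the filter had 2 of 6 higher in the same comparison, Cd79a by 1.15 and Cd79b by 1.06. Cd79a, at 6.50 in TT naive, passed the filter through nTh1 alone. The median over the 9 measured B cell markers was 0.88.

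The CD8 chains, markers of CD8 T cells, which are rich in granzymes, were highest on the cTh1 array. Cd8a was at 6.42 in nTh1, 10.31 in cTh1, 6.22 in TT naive and 6.31 on the array labelled naive, and Cd8b1 at 9.75, 10.75, 9.38 and 8.45. The third gene of that list, Crtam, went the other way, at 7.35, 6.70, 7.07 and 7.16. Cd8a was under the filter on all arrays but cTh1, the array on which Gzma, Gzmb and Gzmk were highest. The receptors Klrd1 and Klrc1, shared by CD8 T and NK cells, were at 10.28 and 9.58 in cTh1, against 8.73 and 6.99 on the array labelled naive. They were the only 2 of 4 genes of their list above the filter to reach 2-fold, where 5.13% of all genes were higher. Klrk1 and Klrg1 were higher by 0.66 and 0.48. Under the filter, Klrc2 was at 0.44 and Klre1 at -0.40. Of 8 B cell markers that passed the filter, 7 exceeded the array labelled naive by 2-fold or more in cTh1. For all genes that share was 5.13%. Cd79a was at 10.29 in cTh1 and 6.53 on the array labelled naive. Cd79a, Ms4a1, Blnk, Ebf1 and Fcer2a passed through cTh1 alone, being under the filter on the array labelled naive. None of 12 sort and T cell identity genes reached 2-fold in that comparison, where 5.13% of all genes were higher and 3.35% lower. Cxcr3 at 0.73, Thy1 at 0.46 and Cd5 at -0.60 differed by more than the SD of 0.402 between probe sets. How much of the granzyme signal came from CD8 T cells was not tested.

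**Figure D5:**
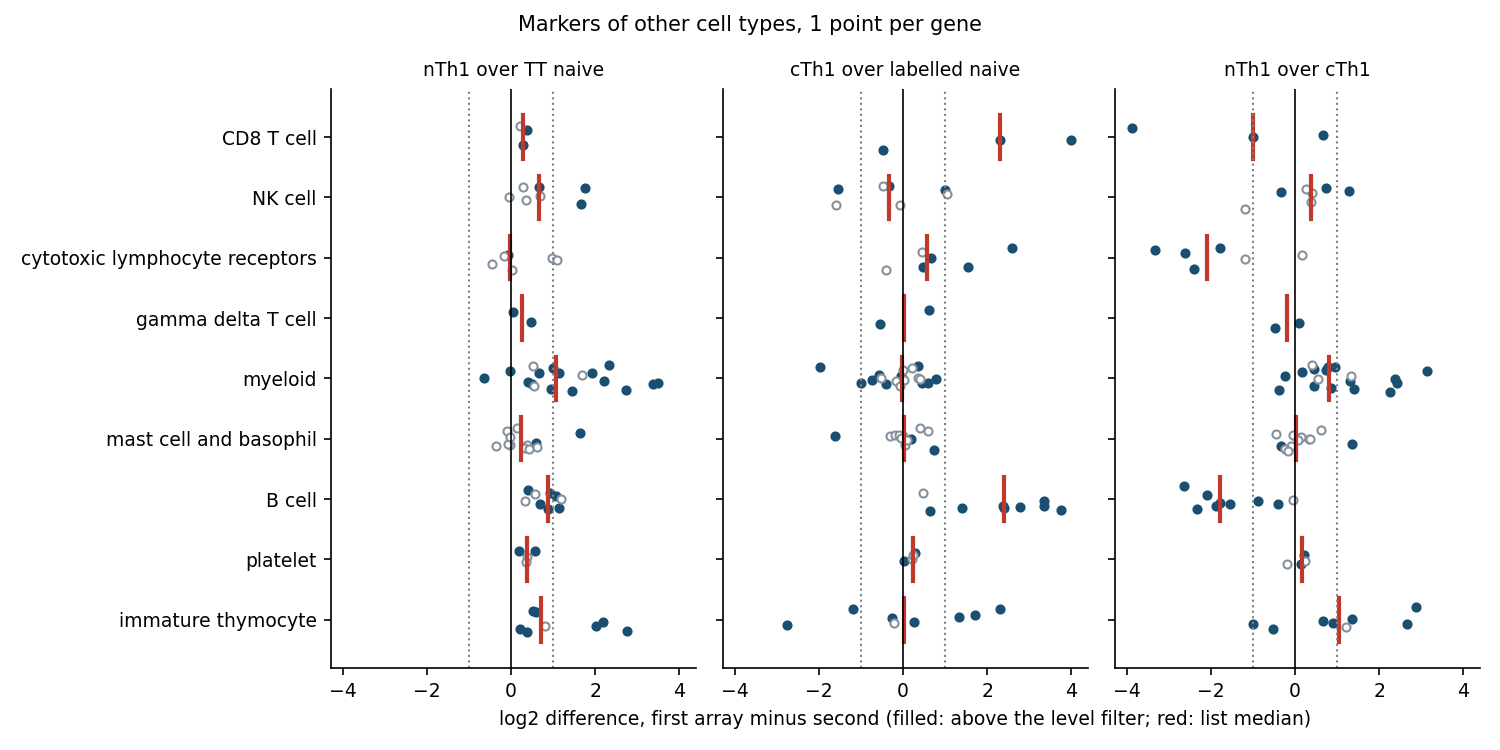
Log2 difference (x axis) of marker genes of other cell types (rows) in 3 comparisons, with filled points for genes above the level filter, open points for genes below it, red lines for list medians and dotted lines at 2-fold. The myeloid median is 1.06 in nTh1 over TT naive, and the B cell and CD8 T cell medians are 2.40 and 2.29 in cTh1 over the array labelled naive.

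Profiles like those of the members were sought among 2365 genes with a range of at least 1 over the 4 arrays. Each gene was centred on its own mean, and likeness was the largest deviation from the member on any array, a description of 4 points. Prf1 was most like Lyst (0.15), Dock9 (0.20) and Ccl6 (0.27). Fasl and Nkg7 were both most like Cxcr3 (0.29 and 0.31), the gene of the receptor used in the sort. Gzma was most like Klrc1 (0.39), Il12rb2 (0.42) and Il18rap (0.45), and Gzmk most like Car5b (0.24), Aldoc (0.25) and Fam183b (0.29). Gzmb had no close match, with Serpinb5 at 0.82, Cdkn1a at 0.91 and Egln3 at 1.07. Ctla2a was most like Nkg7 (0.56), Ifi204 (0.65) and Gzma (0.76).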

How the data were processed

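From each population 300 ng of total RNA was labelled as biotinylated cDNA, per the labels' protocols. The deposited values are log2 summaries of 41345 probe sets, and per the submitters' processing notes the authors made them by RMA, using Expression Console 1.3.1 of Affymetrix. RMA brings arrays to a common distribution, which can shrink a shift of many genes. Array annotation named 23521 probe sets with 1 symbol, 1814 with several and left 16010 unnamed. For each of 22180 genes the probe set with the highest mean was used. The filter, 2-fold count and probe set SD are as given above. The genes and lists were chosen with earlier results of these data known. The rule named all 10 members and, of each list, up to 4 genes past 2-fold with the largest differences. Tnf and Serpinb9 in nTh1 over TT naive, Fas, Ctsc, Crtam, the lower granzymes and markers under the filter were named after their values were seen. Simulated data with planted differences were used to test the counts. Alternatives were other level filters, centring, removal of a loess trend (span 0.3), means over probe sets and a 3-fold threshold. Protein comparisons were not made. The number of arrays, 4, limits the precision. Python 3.11.15, numpy 2.4.6, pandas 2.3.3, statsmodels 0.14.6 and matplotlib 3.10.9 were used.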

Additional observations from a re-analysis of the deposited data

How the results depend on the processing

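Of 78 alternative counts over the 10 genes, 73 stayed within 1.5 times the main count and 5 did not. With TT naive in place of the array labelled naive, 7 members and not 4 were past 2-fold upward in cTh1. With centring, 1 member (Prf1) and not 0 was at least 2-fold higher in nTh1 than in cTh1. In nTh1 over the array labelled naive the 1 lower member, Gzmb, left the count (0) with a filter at the 75th percentile, where it is under the filter, and at 3-fold. In TT naive over the array labelled naive, 3 and not 5 were lower with that filter. Centring moved no member's difference by more than 0.10 and loess by no more than 0.14, and the mean over probe sets changed nothing, since each member has 1. Over all genes in nTh1 over the array labelled naive, 30.3% of those past 2-fold were higher as deposited, 41.0% after centring and 41.8% after loess. Gzmm in TT naive over the array labelled naive, at -0.02, changed sign to 0.04 and 0.08. No paired analysis was possible because each group has 1 array. Of 1248 counts over the other lists, 1128 stayed within 1.5 times. Signal near or under the filter limits Gzmb in both thymic arrays, Gzma and Ctla2a in TT naive, Gzmk outside cTh1 and Gzmm.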

Other observations

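Neighbouring and near-identical genes of these families had like directions in some comparisons and unlike sizes in others. Gzma and Gzmk lie next to each other on chromosome 13. In nTh1 over TT naive Gzma was higher by 1.64 and Gzmk by 0.19, while in cTh1 over the array labelled naive they were higher by 2.68 and 3.74. Gzmb and Gzmc are neighbours on chromosome 14. Gzmc was at 4.63 in nTh1, 6.72 in cTh1, 5.65 in TT naive and 5.51 on the array labelled naive, above the filter in cTh1 alone. Ctla2b, the close copy of Ctla2a, was at 5.50 in nTh1, 8.74 in cTh1, 5.44 in TT naive and 6.87 on the array labelled naive. Ctla2b thus differed by 0.06 between nTh1 and TT naive, both under the filter, where Ctla2a differed by 2.79. Between nTh1 and cTh1, Ctla2b was at -3.24 and Ctla2a at -1.53. In cTh1 over the array labelled naive, Gzmb was higher by 4.89 and Gzmc by 1.20, and Ctla2a by 1.30 and Ctla2b by 1.87. These pairs were picked after their values were seen, and shared binding of probes was not tested.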
